A study of Homo sapiens with 4 samples.

Results

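The expression of 10 genes of cytosolic and endosomal nucleic acid sensing was described in HML58-3 cells treated with mock or with a drug that depletes DNA methyltransferase. The genes were *RIGI*, *IFIH1*, *DHX58*, *MAVS*, *TLR3*, *CGAS*, *STING1*, *ZBP1*, *AIM2* and *IFI16*, chosen by name, and all of their probes were taken by matching the transcript given for each gene probe to a RefSeq gene table. They had 15 probes, of 34892 named probes for 25006 named genes, with 4 probes for *MAVS*, 2 each for *RIGI* and *ZBP1*, and 1 for each of the other 7 genes.

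HML58-3 is a derivative of the human colon cancer line HCT116 that reports DNA demethylation through luciferase, placed under a promoter that is methylated in these cells. The 4 groups were mock, DAC (decitabine), OR-2003 and OR-2100, each of the drugs at 1 μM, added on day 1, with cells collected on day 5. OR-2003 and OR-2100 are trialkylsilylated forms of DAC that release it and that differ from each other in the alkyl groups on the silicon. The drugs were dissolved in DMSO, and what the mock medium held is not given in the sources used here. Each condition was 1 sample on 1 one-colour Agilent array, so the differences below rest on single arrays and carry no p-value.

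RIG-I (*RIGI*) and MDA5 (*IFIH1*) are helicases that bind viral or self double-stranded RNA in the cytosol and signal through the mitochondrial protein MAVS, and LGP2 (*DHX58*) is the other member of their family, which lacks a signalling domain and tunes both. TLR3 reads double-stranded RNA in endosomes. cGAS (*CGAS*) binds DNA in the cytosol and makes a cyclic dinucleotide that activates STING (*STING1*), while AIM2 and IFI16 bind DNA and ZBP1 binds Z-form nucleic acids. Many of these genes are themselves targets of interferon, and drugs that remove DNA methylation are known to raise transcripts of endogenous retroviruses whose double-stranded RNA is read by MDA5.

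A RefSeq promoter table (GRCh38.p14) held 6 of the 10 genes, without *DHX58*, *CGAS*, *STING1* and *ZBP1*. From these, 3 promoters are shown, in the order *IFIH1*, *RIGI*, *TLR3*. The probe of *IFIH1* rose most of the 3, the probes of *RIGI* rose less, and that of *TLR3* changed little. Each run is 260 bases on the strand of the gene, 250 before and 10 after the annotated start, and capitals mark matches, on either strand, to GAAA followed after any 2 bases by GAAA, the core of the interferon-stimulated response element.
*IFIH1*, chr2:162318675-162318934, minus strand: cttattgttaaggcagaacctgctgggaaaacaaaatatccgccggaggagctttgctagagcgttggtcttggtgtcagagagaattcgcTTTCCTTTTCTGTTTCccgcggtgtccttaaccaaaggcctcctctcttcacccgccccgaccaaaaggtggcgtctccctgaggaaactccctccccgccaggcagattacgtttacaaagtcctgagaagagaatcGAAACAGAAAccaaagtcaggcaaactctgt
*RIGI*, chr9:32526187-32526446, minus strand: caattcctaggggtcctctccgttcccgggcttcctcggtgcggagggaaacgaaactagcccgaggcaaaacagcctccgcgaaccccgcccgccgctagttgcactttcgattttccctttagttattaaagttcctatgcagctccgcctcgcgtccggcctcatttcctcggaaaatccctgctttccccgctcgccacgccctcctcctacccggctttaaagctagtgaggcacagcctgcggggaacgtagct
*TLR3*, chr4:186068906-186069165, plus strand: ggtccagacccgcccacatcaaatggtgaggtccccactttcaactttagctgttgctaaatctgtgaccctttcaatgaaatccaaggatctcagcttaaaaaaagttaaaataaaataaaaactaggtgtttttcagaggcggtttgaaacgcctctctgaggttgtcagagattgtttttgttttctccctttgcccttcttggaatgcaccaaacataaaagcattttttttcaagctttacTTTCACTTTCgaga
The *IFIH1* promoter held 3 matches, of which 2 overlap on the reverse strand, beginning at -159 and -153 relative to the start, and 1 lies on the forward strand, at -21. The *TLR3* promoter held 1 match, on the reverse strand, running across the start from -4. The *RIGI* promoter held 0 matches in its 300 bases. Its run does hold GAAA followed after 1 base by GAAA, which the searched pattern does not count. Repeats at other spacings were not counted in any promoter. Among all 35116 promoters of the same length (250 bases before and 50 after the start), 3.57% held at least 1 match and 0.259% held 2 or more, overlapping matches included. CpG sites, at which DNA is methylated, numbered 12 in *IFIH1*, 27 in *RIGI* and 5 in *TLR3*, against a median of 14 over all promoters. Of the other promoters held, *MAVS* had 34 CpG sites and 0 matches, *AIM2* 2 sites and 1 match, and the 2 starts of *IFI16* 1 and 3 sites and 0 matches. Methylation at these sites was not analysed here.

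Levels are log2 intensities set so that the 75th percentile of an array's gene probes is 0, and they are compared between arrays for 1 probe at a time. The thresholds for induction are those of the study: a gene was called induced when it was at least 2-fold above mock and reached -1 or more with the drug. Each gene was read by its probe with the highest mean signal, and, as a mirror rule added here, called reduced when it was 2-fold or more under mock and the mock level was at least -1. Of the 10 genes, 7 were well above background on all 4 arrays by that probe, *CGAS* was above it on the 3 drug arrays but not on mock, and *AIM2* and *ZBP1* on none. The error given is the spread between spots of one array, taken from probes with 10 spots nearest in intensity, and it holds no spread between cultures. Few probes with 10 spots were dim. The error of dim sensor probes therefore rests in part on brighter probes and may be too small. The 4 arrays shared 1 slide and 1 scan run, and between 31601 and 33282 of 58201 gene probes were well above background. The median of the 15977 named genes measured on all arrays lay at -0.18, -0.17 and -0.21 relative to mock with the 3 drugs, and sets of 3 values are given throughout for DAC first, OR-2003 second and OR-2100 last. The keratins *KRT8*, *KRT18* and *KRT19* of epithelial cells were present on all arrays. *PTPRC*, the general leukocyte marker, stood at -1.48 on mock and -1.79, -1.75 and -1.64 with the drugs. Other markers of the same lists moved more. *EPCAM* and *CDH1* were reduced and *CD14* was induced by all 3 drugs, and all markers are given below.

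Of the 10 sensor genes, 3 were induced with each drug, namely *DHX58*, *IFIH1* and *CGAS*. Over all named genes 5.77%, 5.89% and 5.81% were induced with the 3 drugs and 5.27% with all of them. *STING1* was reduced with DAC and OR-2100, where 5.96% and 6.82% of named genes were reduced, and no sensor gene with OR-2003, where 6.05% were. None was reduced by all 3 drugs, against 5.21% of named genes. This count reads *MAVS* by its probe with the highest mean signal, which rose, while 2 of its 4 probes were reduced with every drug (below). The median difference of the 10 genes was 0.76, 0.63 and 0.80 on the log2 scale, against -0.12, -0.093 and -0.23 over all named genes, and 0.67, 0.57 and 0.75 over the 7 genes measured on all arrays. These medians use the same *MAVS* probe, and the 0.57 with OR-2003 is its value. The 3 comparisons share the mock array.

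**Figure D1:**
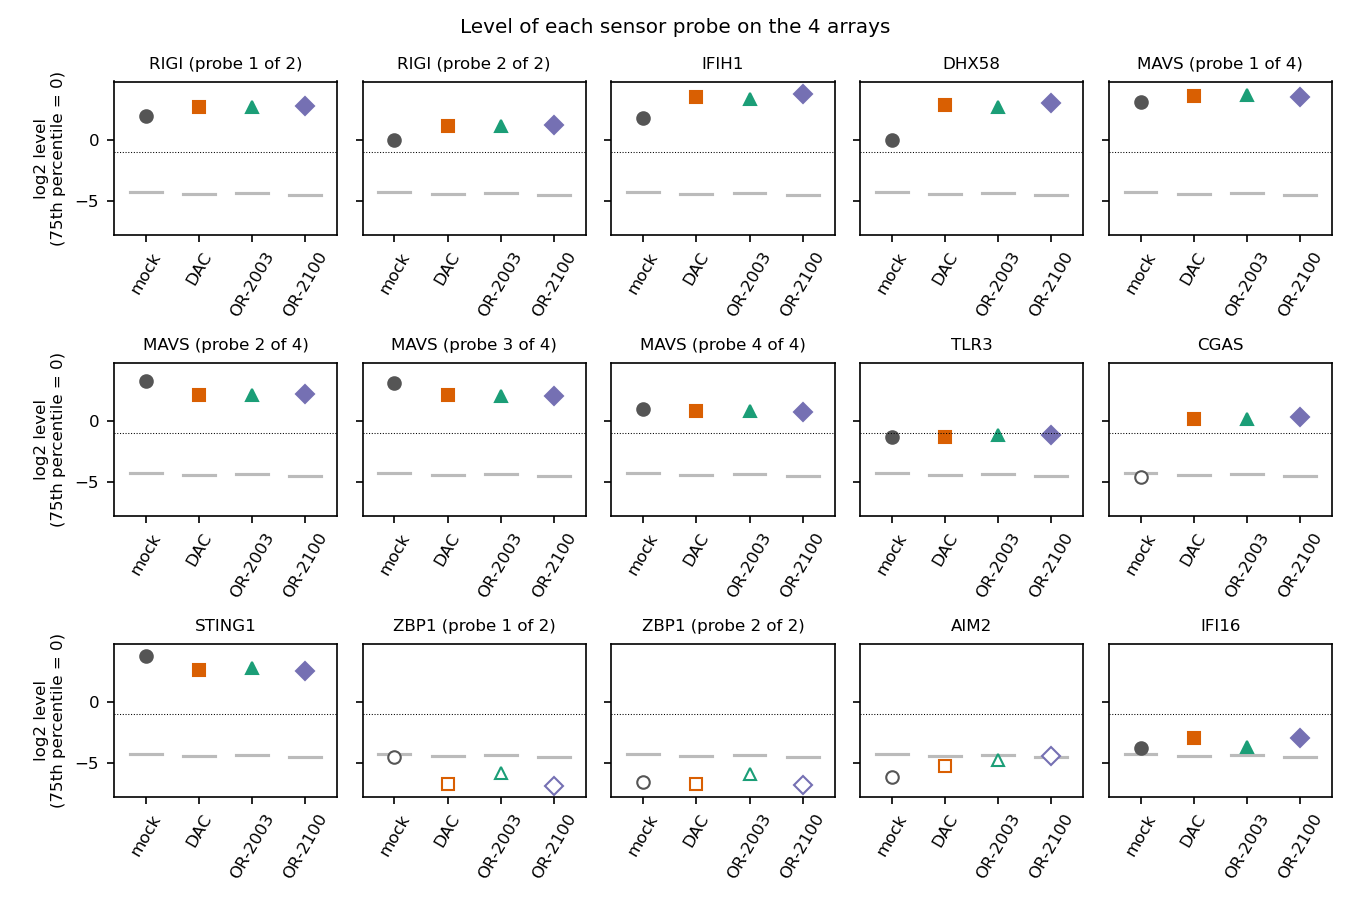
Level of each of the 15 sensor probes on the 4 arrays (y axis, log2 intensity, 75th percentile of the array at 0), 1 panel per probe and 1 point per array, open where the probe was not well above background. Grey dashes give the lowest level well above background on each array and the dotted line the level of -1 used for calls. *DHX58*, *IFIH1* and *CGAS* sit higher on the 3 drug arrays than on mock, *STING1* and 2 of the 4 *MAVS* probes lower, and *AIM2* and *ZBP1* have open points on all 4 arrays.

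The receptors of the RIG-I family differed in how far they rose. *DHX58* stood at -0.03 on mock and at 2.84 (DAC), 2.70 (OR-2003) and 3.00 (OR-2100). All 3 drug arrays were far above mock and within 0.29 of each other. The rise was 7.33, 6.64 and 8.14-fold, or 2.87, 2.73 and 3.02 on the log2 scale with a spot SD of up to 0.099, and 1.58%, 1.80% and 1.51% of the genes measured on all arrays had a higher difference. *IFIH1*, already expressed at 1.84 on mock, reached 3.55, 3.35 and 3.77. It rose 3.28, 2.86 and 3.82-fold (1.71, 1.52 and 1.93, spot SD up to 0.090), and 3.94%, 4.89% and 3.30% of measured genes lay higher. The promoter with 3 motif matches shown above belongs to this gene, and whether the matches bear on the rise was not tested.

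*RIGI* was read by 2 probes that fell on either side of the threshold. The brighter probe stood at 2.0 on mock and 2.67, 2.69 and 2.76 with the drugs. It was higher on every drug array, by 0.67, 0.69 and 0.75 (spot SD up to 0.088), which is 1.59, 1.61 and 1.69-fold and short of the call. The dimmer probe stood at 0.02 on mock and 1.18, 1.11 and 1.26 with the drugs. Its difference was 1.16, 1.09 and 1.24 (spot SD up to 0.11), or 2.23, 2.13 and 2.36-fold. It was thus induced with every drug, as were 3.13% of all gene probes, against 3.44%, 3.53% and 3.5% with each drug alone. By either probe *RIGI* rose less than *IFIH1* and *DHX58*.

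*MAVS*, the adaptor that RIG-I and MDA5 share, was read by 4 probes that went different ways. The probe with the highest mean signal stood at 3.10 on mock and 3.61, 3.67 and 3.50 with the drugs, 1.43, 1.48 and 1.32-fold higher. A second probe fell from 3.29 to 2.11, 2.14 and 2.21, which was 2.27, 2.23 and 2.11-fold lower. The next fell from 3.13 to 2.10, 2.03 and 2.01, 2.04, 2.15 and 2.18-fold lower. Both were reduced with every drug, as were 3.41% of all gene probes, against 4.03%, 4.07% and 4.49% with each drug alone. These 3 probes carry the same RefSeq transcript in the array design, and their differences of 0.51 to -1.19 with DAC lay many spot SDs (0.088 to 0.089) apart. The probe for another *MAVS* transcript stood at 0.96 on mock and 0.81, 0.83 and 0.71 with the drugs. Of 4158 genes with at least 2 probes measured on all arrays, 83 (2.0%) had 1 probe above mock and another at least 2-fold below it with every drug. The direction of *MAVS* as a gene is therefore not given. Where in the transcript each probe lies was not analysed here.

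*TLR3*, the endosomal receptor, stayed low. It stood at -1.33 on mock and -1.31, -1.15 and -1.14 with the drugs. The difference of 0.01, 0.17 and 0.18 was within 2 spot SDs (0.13 to 0.14 for 1 SD), though above the median of all measured genes.

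**Figure D2:**
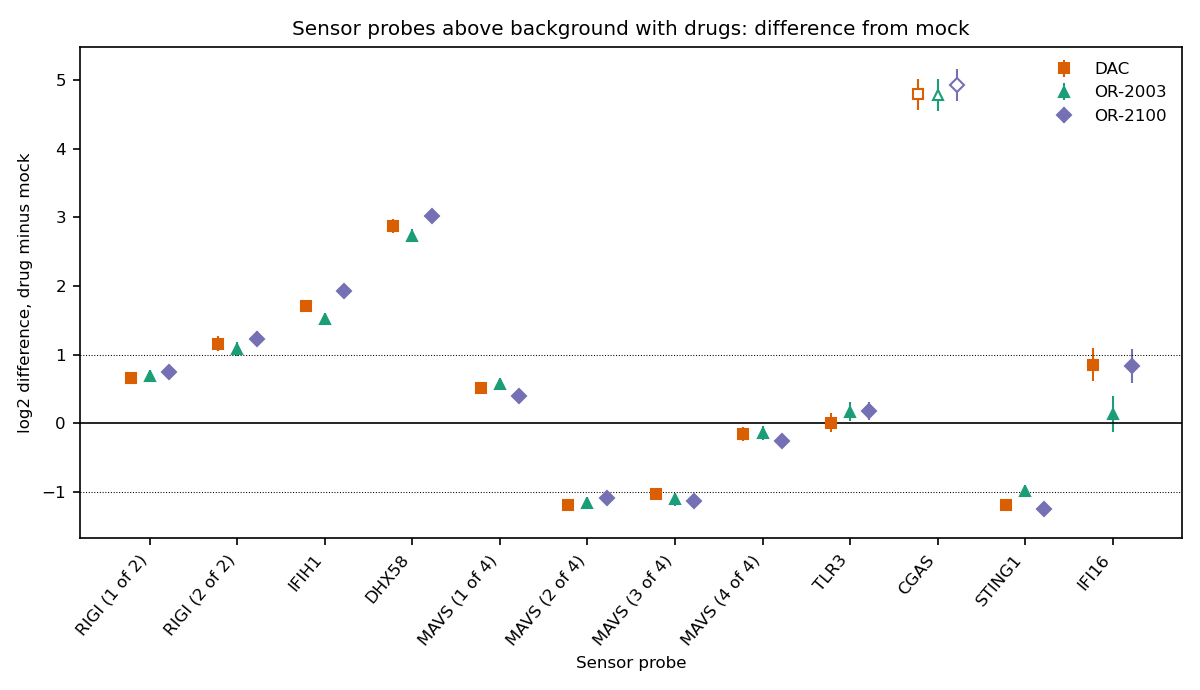
Difference of each drug from mock (y axis, log2) for the 12 sensor probes well above background with all 3 drugs (x axis); bars are 1 spot SD, and dotted lines mark 2-fold. Open points (*CGAS*) use a mock value not well above background. *DHX58* and *IFIH1* lie above 2-fold with every drug, the 2 *RIGI* probes lie on either side of it, and 2 *MAVS* probes and *STING1* lie near or under 2-fold lower.

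On the DNA-sensing side, *CGAS* was induced with each drug, while the level of its adaptor was lower. *CGAS* had an intensity of 6.30 on the mock array, with a scanner error of 1.95, which was not well above background. On the drug arrays its intensity was 202, 189 and 221, with errors of 20.3, 19.0 and 22.2. The levels were -4.60 on mock and 0.19, 0.18 and 0.33 with the drugs. Set against the lowest level well above background on the mock array (-4.29), *CGAS* was at least 22.3, 22.2 and 24.6-fold higher. This bound depends on how low intensities are handled. Under normexp correction, which adds an offset of 50 to every intensity, the difference was 1.80, 1.83 and 1.91. Beside a mock intensity of 6.30, such an offset by itself makes the difference smaller. The parts of the offset and of the background subtraction were not told apart. Of all named genes, 6.28% were likewise not well above background on mock and well above it on all 3 drug arrays.

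*STING1*, which relays the signal of cGAS, was well expressed on mock at 3.78 and lower on every drug array, at 2.59, 2.80 and 2.53. It was 2.28, 1.97 and 2.37-fold lower, or -1.19, -0.98 and -1.25 with a spot SD of up to 0.091. With OR-2003 it missed the 2-fold threshold narrowly. The share of measured genes with a higher difference was 92.8%, 88.5% and 92.6%. In RNA from a whole culture, a lower share of cells that express *STING1* and less of its RNA per cell cannot be told apart, and the same holds for every other difference here.

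*IFI16*, a DNA-binding sensor of the nucleus and cytosol, was just above background. Its intensity was 10.8 on mock and 22.7, 13.0 and 22.3 with the drugs, with errors of 2.29, 3.12, 2.41 and 2.96. The log2 difference was 0.86, 0.14 and 0.84 with a spot SD of 0.24 to 0.26. Under normexp correction, whose offset of 50 is above all 4 intensities, it was 0.11, -0.055 and 0.13. The promoters of both *IFI16* starts held 1 and 3 CpG sites and no motif match. *AIM2*, which assembles an inflammasome on DNA, was not well above background on any array, with intensities of 2.09, 4.63, 5.93 and 8.28 for mock, DAC, OR-2003 and OR-2100 and errors of 1.92 to 2.08. Both *ZBP1* probes were not well above background on any array either, at 1.49 to 6.77 and 1.53 to 2.81. No fold change is given for *AIM2* and *ZBP1*, and changes under this limit were not detectable.

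DAC, OR-2003 and OR-2100 were compared with each other at the same dose and time, for 8 sensor genes and 3 pairs of drugs, 24 comparisons in all. None differed 2-fold, where 0.0843% (OR-2003 and DAC), 0.141% (OR-2100 and DAC) and 0.288% (OR-2100 and OR-2003) of the named genes measured on both arrays did. In 8 comparisons the difference was over 2 spot SDs, and in none with the spot SDs of the normexp-corrected values, which for *IFIH1* were 0.16 to 0.17 with the drugs against 0.063 for the processed DAC signal. The scanner error of *IFIH1* with DAC, 206 on an intensity of 2061, is also wider than this spot SD. The comparisons were not repeated with the scanner error. *IFIH1* was 0.41 higher with OR-2100 than with OR-2003 (2 spot SDs either side give 0.24 to 0.59), 0.22 higher than with DAC (0.045 to 0.40), and with OR-2003 -0.19 relative to DAC (-0.37 to -0.018). *DHX58* was 0.29 higher with OR-2100 than with OR-2003 (0.12 to 0.47). *STING1* was -0.27 with OR-2100 relative to OR-2003 (-0.45 to -0.080) and 0.21 with OR-2003 relative to DAC (0.028 to 0.39). The difference from mock was smallest with OR-2003 for *IFIH1*, *DHX58* and *STING1*, though for *DHX58* OR-2003 and DAC lay within 2 spot SDs of each other. For comparison, 95% of all genes lay between -0.51 and 0.41 for OR-2100 relative to OR-2003, and 6.38% had a larger absolute difference than *IFIH1*.

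*IFI16* differed most between drugs, being -0.72 with OR-2003 relative to DAC (-1.08 to -0.36) and 0.70 with OR-2100 relative to OR-2003 (0.32 to 1.09). Of all genes, 0.618% and 1.33% had a larger absolute difference, and its intensities of 13.0 to 22.7 lay near background. Its spot SD rests in part on brighter probes, so these intervals may be too narrow. *CGAS* differed by -0.0099 between OR-2003 and DAC (-0.25 to 0.23), 0.14 between OR-2100 and DAC (-0.078 to 0.35) and 0.15 between OR-2100 and OR-2003 (-0.085 to 0.38). By their brightest probes, *RIGI* differed by at most 0.088, *TLR3* by at most 0.17 and *MAVS* by -0.17 to 0.056. The dimmer *RIGI* probe differed by at most 0.15 and the other *MAVS* probes by -0.12 to 0.11, and none of these was beyond 2 spot SDs. These intervals cover the spots of one array only and do not show that the drugs act alike on these genes.

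The 3 induced genes were ordered alike, highest with OR-2100, then DAC, then OR-2003. Of the 1319 named genes induced by all 3 drugs, 274 (20.8%) had this order. It was also the order of 9 of the 12 interferon and early target genes induced by all 3 drugs. For *DHX58* and *CGAS* neither DAC and OR-2003 nor OR-2100 and DAC lay more than 2 spot SDs apart. The order of *CGAS* changed in 2 of 12 settings of scaling, spots and background, the main setting included, that of *DHX58* and *IFIH1* in none. Each of these genes had 1 probe with 1 spot. Several of the settings (spot averages, probe averages, floors and the series table) therefore could not change their order.

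The other genes of the pathway were read from lists written from general knowledge. Of 36 other nucleic acid sensors, 6 were induced by all 3 drugs, against 5.27% of all named genes, and none reduced, with a median difference of 0.16, 0.17 and 0.052. Among them, *OASL* rose 5.09, 4.39 and 6.08-fold and *IFIT1*, which binds RNA with an unmodified cap, 5.75, 5.22 and 5.93-fold. *OAS1*, which makes the activator of RNase L on double-stranded RNA, was not well above background on mock and at least 10.4, 8.21 and 12.7-fold higher with the drugs, but below -1 with OR-2003 and so not induced by it. *OAS2* rose 5.47, 5.82 and 6.62-fold. *NLRP3* was at least 1.98, 2.62 and 2.90-fold higher, at levels below -1.

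Of the adaptors, kinases and transcription factors, 30 had a probe, and 2 of these (6.67%, against 5.27% of all named genes) were induced and none reduced by all 3 drugs, with a median of 0.19, 0.19 and 0.14. *IRF7*, the factor that amplifies interferon transcription downstream of MAVS, rose from 4.14 on mock to 6.14, 6.15 and 6.35. *PYCARD*, the inflammasome adaptor that AIM2 binds, was not well above background on mock and at least 21.8, 20.0 and 19.4-fold higher with the drugs, while *AIM2* itself stayed at background. *RIPK3*, the kinase that ZBP1 binds, was at least 3.82, 5.00 and 6.22-fold higher but did not reach -1. *CASP10* and *AZI2* differed by -0.82, -0.86 and -0.82 and by -0.78, -0.88 and -0.91.

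Among 35 positive and negative regulators, 3 were induced and 2 reduced by all 3 drugs (8.57% and 5.71%, against 5.27% and 5.21% of all named genes). *TNFAIP3*, a deubiquitinase that restrains RIG-I and NF-κB signalling, rose 5.30, 4.51 and 5.47-fold, and *IFITM1* 6.58, 6.04 and 9.0-fold. *UBA7*, the E1 enzyme for ISG15, was 3.31, 3.53 and 5.28-fold higher but below -1. Of 18 enzymes that clear or edit nucleic acids, none was induced and 2 (11.1%, against 5.21% of all named genes) were reduced by all 3 drugs. These were *SKIC3*, of the cytosolic RNA decay complex (-1.34, -1.33 and -1.15), and *DNASE2*, the lysosomal DNase (-1.04, -1.15 and -1.07). *PNPT1*, which degrades RNA in mitochondria, differed by 0.87, 0.77 and 0.99.

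Of 26 interferons and early targets, 12 (46.2%) were induced by all 3 drugs and none reduced, with a median of 1.91, 1.85 and 2.36, above the median of the sensor genes in each comparison. *MX1*, an antiviral GTPase, rose most of those measured on all arrays, 63.4, 55.9 and 75.6-fold. *IFI44* rose 12, 9.86 and 14.3-fold and *IFI6* 7.51, 7.28 and 9.45-fold. *MX2* was at least 23.4, 24.0 and 29.7-fold and *IFNL1*, a type III interferon, at least 6.74, 5.22 and 7.18-fold higher, with *IFNL1* below -1. Of the other interferon genes, *IFNL2* was induced with each drug, 6.40, 6.82 and 8.15-fold. *IFNL3* was at least 3.33, 3.83 and 4.33-fold higher but below -1. *IFNE* differed by -0.83, -1.13 and -0.51 and was not called, with a mock level below -1. *IFNB1*, a type I interferon made downstream of MAVS and STING, was not well above background on any array, nor were *IFNA2* and *IFNK*.

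The samples were cultures of the HML58-3 line, and no other cell type is described in them. Transcripts that serve as markers of leukocytes and fibroblasts, which also express the sensors, were read beside these genes. Of 6 immune markers reported, *CD14* was induced by all 3 drugs (3.24, 3.24 and 3.27-fold). *PTPRC* differed by -0.31, -0.27 and -0.16, *ITGAM* by -0.18, -0.20 and -0.15, and *NCAM1* was at least 4.69, 4.79 and 5.38-fold lower. *MS4A1* was not well above background on any array, while *CD3E* was above it with OR-2100 alone. The summed intensity of the 6, not scaled between arrays, was 151 on mock and 208, 195 and 218 with the drugs. Of 5 fibroblast markers none was induced. *COL1A1* differed by 0.83, 0.77 and 0.90 and *PDGFRB* by -0.63, -0.29 and -1.08, *DCN* was not well above background on mock and at least 6.63, 7.26 and 6.60-fold higher, and *COL3A1* and *LUM* were not well above background on any array. The 5 summed to 336 on mock and 706, 652 and 730 with the drugs, again unscaled. Of 8 markers of colon epithelium, *EPCAM* and *CDH1* were reduced by all 3 drugs (-1.49, -1.52 and -1.46, and -1.09, -1.18 and -1.25). *VIL1* was above background only with the drugs (at least 1.38, 1.71 and 1.79-fold). *KRT8* differed by 0.59, 0.59 and 0.47, *KRT18* by 0.59, 0.52 and 0.46 and *KRT19* by 0.38, 0.31 and 0.32. *CDX1* differed by -0.15, -0.14 and -0.046 and *CDX2* by 0.35, 0.15 and 0.20. The list, again unscaled, summed to 199226 on mock and 268734 to 297246 with the drugs, and the bright keratins weigh most in this sum. The part of these shifts in the sensor results was not tested.

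The pattern of *DHX58*, the sensor with the largest difference among those measured on all arrays, was nearest to that of *HOMER2*, *VWF* and *ECM1* among 15976 genes, by the summed squared distance of the 3 differences from mock (0.014, 0.018 and 0.022). *HOMER2* differed from mock by 2.92, 2.65 and 2.95, *VWF* by 2.88, 2.82 and 2.92 and *ECM1* by 2.90, 2.85 and 3.11.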

How the data were processed

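RNA of HML58-3 cells (mock and 3 drugs) was measured on 4 arrays, 1 per condition. The authors deposited spot intensity values, background-corrected by Agilent Feature Extraction 12.1.0.3, not normalized between arrays, and a series table of the same values. Control spots and gene spots marked as outliers (52 to 98 per array, 0 for the sensor genes) were left out, replicate spots were averaged as log2 values, and each array was centred on its 75th percentile over gene probes, as in the methods of the study. A probe was well above background when over 0.5 of its spots were. The spread between spots is the median SD of the 30 probes with 10 spots nearest in level, of 293 used. Probes were named by accession through RefSeq (GRCh38.p14), and the array design rests on another build, so no coordinates of probes are given. The number of arrays limits the precision, and no test was run between conditions. The counting recovered 200 of 200 probes changed 4-fold in data simulated for the DAC comparison on 58200 probes, with 0 unchanged probes called. The changed probes were drawn from the brighter ones, and the simulated noise was small beside the 2-fold threshold. This outcome was thus near certain in advance. It checks the counting code only and says nothing about dim probes or real error rates.

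The members and the lists were chosen with earlier results of these data known. Named list genes are the 3 with the largest mean difference among those measured on all arrays and the 2 with the highest level with drugs among those above background only with drugs. The interferon genes other than *IFNL1* and the marker genes outside this rule, such as *MS4A1*, *KRT18* and *KRT19*, were named besides, after their values were seen. An item of the marker list is not reported here. Of the listed symbols, *MYD88*, *RNASET2*, *ENPP1*, *IFNA1*, *IFI27*, *CD68* and *LYZ* were not matched to a probe by accession. Alternatives were normexp (offset 50, on the deposited median intensity, since a mean column was not used here), quantile normalization, other scalings, floors, spot averages, probe choices and thresholds. Python 3.11.15, numpy 2.4.6, pandas 2.3.3, R 4.3.3 and limma 3.58.1 were used.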

Additional observations from a re-analysis of the deposited data

How the results depend on the processing

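The number of sensor genes induced stayed within 1.5 times of 3 under every setting. *CGAS* was lost with the percentile taken over bright probes only (those well above background) and when dim probes were left out. Both settings put its level below -1, while its difference from mock stayed large. *IFIH1* was lost at a 4-fold threshold, *RIGI* was gained with OR-2100 under the percentile of bright probes, and *AIM2* was gained with OR-2100 under median scaling and with OR-2003 and OR-2100 without a level threshold. The count reduced, 1 (DAC), 0 (OR-2003), 1 (OR-2100) and 0 (all 3), became 0 with DAC and OR-2100 at 4-fold and under the percentile of bright probes. It became 2, 2, 2 and 2 under median scaling, 2, 1, 2 and 1 without a level threshold and 2, 1, 2 and 1 with any probe of a gene, and 1 with OR-2003 and with all 3 drugs under normexp. *ZBP1*, not above background, was among the genes added by median scaling and by leaving out the level threshold. Of the 8 differences between drugs over 2 spot SDs, 0 were left under normexp. The adaptors induced by all 3 drugs, 2, became 1 without dim probes and at a level threshold of 0, 4 under median scaling and 5 without a level threshold. The clearing enzymes, 0, became 1 under the percentile of bright probes. The interferons, 12, became 6 at 4-fold and 19 without a level threshold, and the other sensors, 6, became 3 at 4-fold. The mean of the 4 *MAVS* probes gave -0.46, -0.46 and -0.51, against the direction of its brightest probe, and normexp turned *AIM2* to -0.068 with DAC and -0.022 with OR-2100.

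The share of induced among changed named genes was 49.2%, 49.3% and 46.0%, and 63.1%, 68.9% and 61.8% under the percentile of bright probes, which moved the median difference of all named genes from -0.12, -0.093 and -0.23 to 0.11, 0.20 and 0.026. Median scaling moved it to -0.23, -0.32 and -0.32. Of the other values, 212 differences of single genes moved by less than the spread between spots and 107 by more. The alternatives for the reduced counts and for the differences between drugs, the scaling by probes bright on all arrays and the use of any probe were chosen after seeing the data. The series table held the same values and tests nothing. Each sensor probe had 1 spot and no outlier mark, so keeping marked spots or taking the median of spots could hardly move its value. The mean of a gene's probes could not move the 7 genes with 1 probe, nor a floor the bright ones. Many of the 212 were thus fixed in advance and do not show that the values are stable. No array could be left out, with 1 per condition. No paired analysis was possible because single arrays without a test leave no pairs to block on. Signal over background limits *AIM2*, *ZBP1*, *IFI16* and the mock value of *CGAS*.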
